A study of Mus musculus with 10 samples.

Results

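The proteasome genes of mouse microglia are described here across cultures given vesicles from the serum of nerve-injured or sham-operated mice. The members are the rows of the deposited expression table whose symbol starts with Psm, followed by a letter from a to g and a number. There were 48 such rows of 32074, and 5 of them (Psmb8, Psmb9, Psmb10, Psme1 and Psme2) are immunoproteasome genes, set here beside the other 43. The rule used symbols and no measured value.

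The cells were cortical microglia cultured from CD-1 mouse pups of postnatal day 2 to 4, in medium with 10% serum. Each culture received PBS (4 libraries), or 1 µg of sEVs (small extracellular vesicles, which cells shed into blood) from the serum of sham-operated mice (3 libraries) or of mice with spared nerve injury (SNI, a lesion of part of the sciatic nerve used to study lasting pain; 3 libraries). All 3 groups were kept for 24 h in medium whose serum had been depleted of exosomes, and the PBS cultures received no vesicles from any mouse. The labels call the libraries biological replicates but do not say whether vesicles were pooled over mice or cells over pups, so p-values measure the spread between these cultures.

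The 20S core of the proteasome is a barrel of stacked rings of alpha and beta subunits, and its beta rings hold the peptide-cutting sites. The 19S particle caps the barrel, binds ubiquitin-tagged proteins and feeds them in with its ring of ATPases. Interferons are known to induce Psmb8, Psmb9 and Psmb10, which replace the constitutive catalytic subunits Psmb5, Psmb6 and Psmb7 in newly built cores, and Psme1 and Psme2, which form the PA28 activator; the resulting immunoproteasome is known for making peptides that MHC class I molecules present.

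Levels are in TPM, a relative transcript abundance that the authors scaled for gene length and to the same total in every library, so levels of different genes can be set side by side. Read depth per library is not known from TPM. Of all genes, 14806 had a mean of at least 1 TPM and were tested with limma on log2(TPM + 1), adjusted over all of them, with calls at an adjusted p under 0.05. Of the members, 47 were tested. The exception was Psmb11, the thymus-specific catalytic subunit, which was at or below 0.0310 TPM in every library. The comparisons with PBS share the 4 PBS libraries, so they are not independent of each other.

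Sham sEV libraries stood apart from the rest across the whole table: 68.9% of all tested genes passed the test between sham sEV and PBS, against 5.34% between SNI sEV and PBS and 65.6% between SNI sEV and sham sEV. The median log2 fold change of all tested genes was -0.25 in sham sEV against PBS, and member changes are read beside it. Summed TPM of 8 microglia markers ran from 4951 to 5362 in PBS, from 3648 to 3754 in sham sEV and from 5218 to 5477 in SNI sEV. Among these markers P2ry12 and Tmem119 were low, at 5.85 ± 1.07 and 6.0 ± 1.17 TPM in PBS (SD, n = 4). Summed markers of astrocytes (6 genes) ran from 128 to 144, 82.2 to 95.1 and 146 to 151 TPM in the same order, those of the oligodendrocyte lineage (7 genes) from 427 to 480.0, 269 to 303 and 456 to 524, those of neurons (5 genes) from 9.40 to 15.6, 9.83 to 11.9 and 10.8 to 12.3, and those of fibroblasts and endothelium (5 genes) from 1.93 to 3.02, 3.28 to 4.06 and 3.17 to 3.93. Rbfox3, Snap25 and Syt1 of neurons and Col1a1 of fibroblasts were near 0 in all groups, while Tubb3 of neurons stood at 10.2, 9.82 and 9.65 TPM (means of PBS, sham sEV and SNI sEV), the fibroblast gene Dcn at 0.0372, 1.89 and 0.0508 and the endothelial gene Pecam1 at 0.172, 0.811 and 0.243. The part that these shifts play in the proteasome values was not tested, and in such bulk cultures fewer cells of a type and less RNA per cell cannot be told apart.

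All 5 immunoproteasome genes were higher in sham sEV than in PBS, and 4 of the 5 were also higher in SNI sEV than in PBS, by less. Their median log2 fold change was 1.14 in sham sEV and 0.50 in SNI sEV. Over the other 42 tested members it was 0.17 and -0.04, with 24 called higher and 5 lower in sham sEV and none called in SNI sEV. At an unadjusted limma p under 0.05, 0 of those 42 were higher and 2 lower (Psmd8 and Psmd9) in SNI sEV. The share of all tested genes at that threshold is not given here, so this count is not read as a result about the members. The members called higher thus came to 29 of 47 in sham sEV, where 16.5% of all tested genes were called higher and 52.5% lower, and to 4 of 47 in SNI sEV, where 2.97% were called higher and 2.36% lower. Groups did not overlap for 34 of 47 members between sham sEV and PBS, and for 66.5% of all tested genes.

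**Figure D1:**
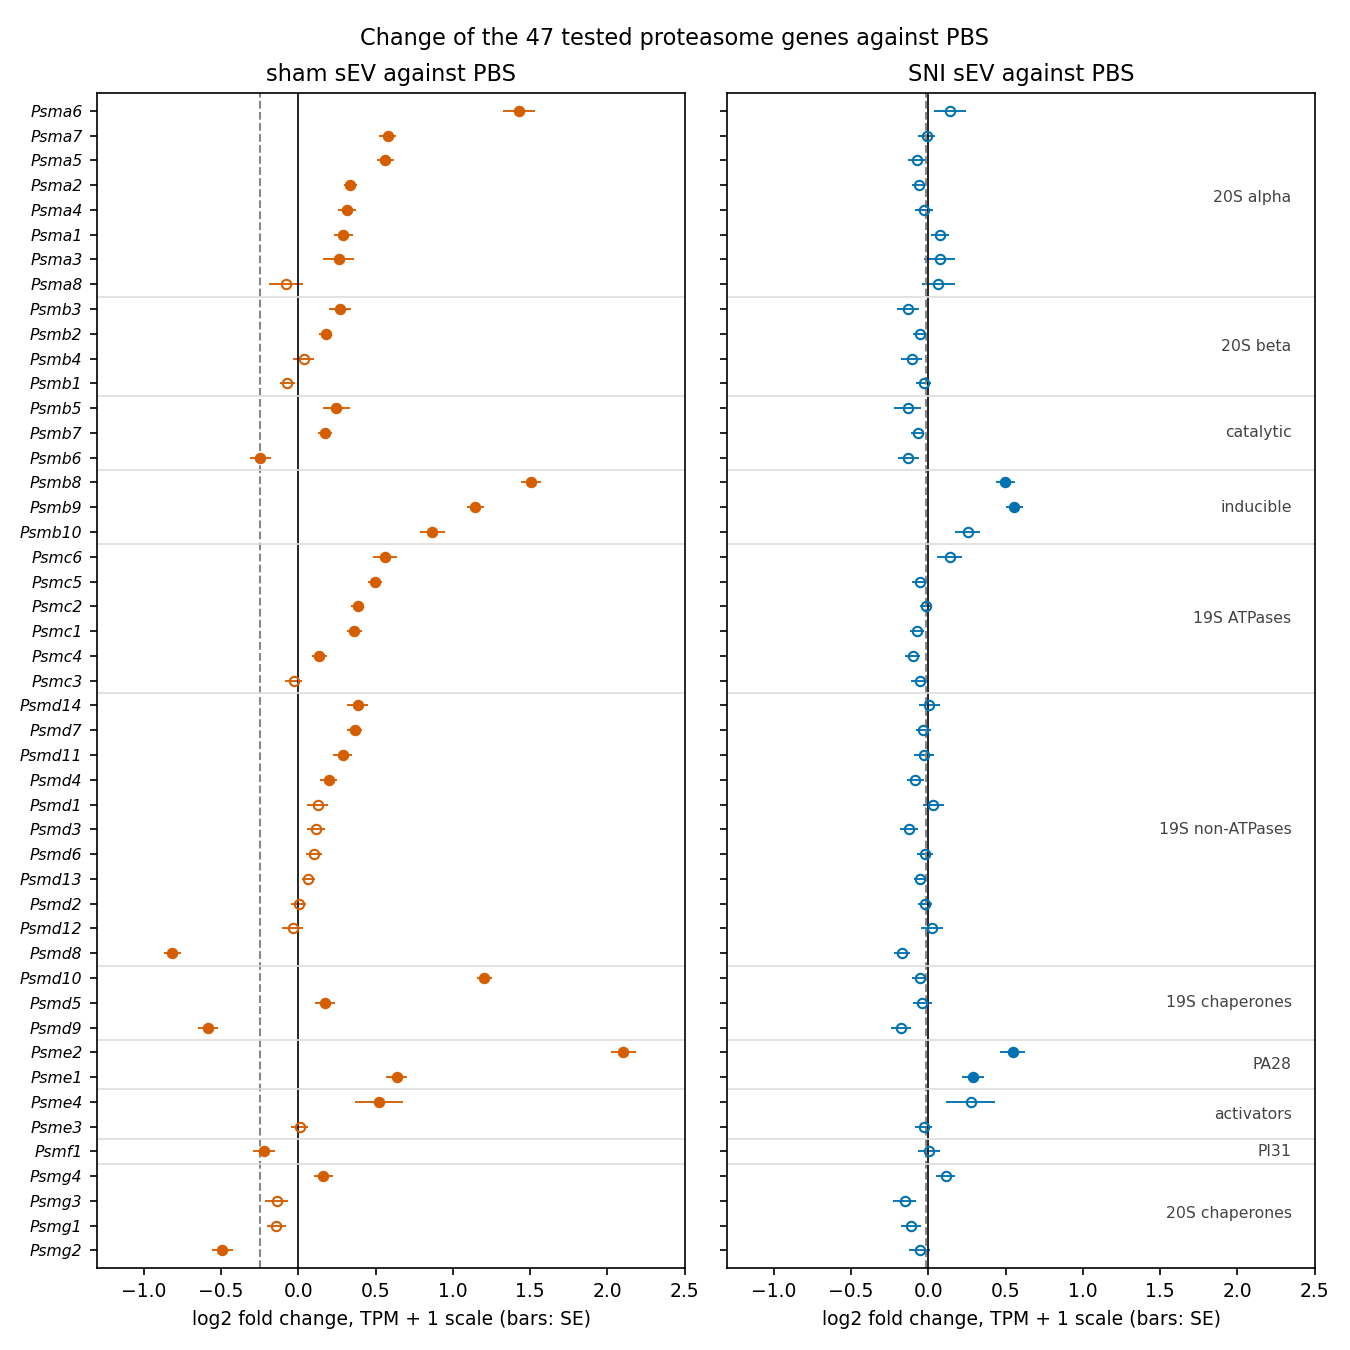
Log2 fold change on the TPM + 1 scale of each of the 47 tested members against PBS, in sham sEV (left) and SNI sEV (right), ordered by role; bars are limma standard errors, filled points passed at an adjusted p under 0.05, and the dashed line is the median of all 14806 tested genes. In sham sEV most points lie to the right of that median of -0.25, while in SNI sEV the 4 filled points are Psmb8, Psmb9, Psme1 and Psme2.

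The windows around the start sites of 5 catalytic and activator genes are shown, from both sides of the contrast between inducible and constitutive subunits. Those of Psmb7, Psmb10 and Psme2 are not shown, so the 5 do not stand for all genes of that contrast. Each window holds 250 bases before and 50 after the start that RefSeq gives on GRCm38.p6, the assembly that the mm10 build of the files represents. Capitals mark matches, on either strand, to GAAANNGAA (a core of the interferon-stimulated response element, ISRE), TTCNNNGAA (the core of the gamma-activated site, GAS, bound by STAT proteins) or TGACNNNGC (the core of the antioxidant response element, ARE, bound by the NFE2-like factors).
Psmb8, chr17:34197945-34198244, plus strand: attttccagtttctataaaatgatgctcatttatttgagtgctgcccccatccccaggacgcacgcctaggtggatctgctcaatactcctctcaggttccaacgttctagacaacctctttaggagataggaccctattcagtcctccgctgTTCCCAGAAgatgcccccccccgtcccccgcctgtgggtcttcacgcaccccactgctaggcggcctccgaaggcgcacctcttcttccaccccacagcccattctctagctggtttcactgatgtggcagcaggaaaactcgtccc
Psmb9, chr17:34187281-34187580, minus strand: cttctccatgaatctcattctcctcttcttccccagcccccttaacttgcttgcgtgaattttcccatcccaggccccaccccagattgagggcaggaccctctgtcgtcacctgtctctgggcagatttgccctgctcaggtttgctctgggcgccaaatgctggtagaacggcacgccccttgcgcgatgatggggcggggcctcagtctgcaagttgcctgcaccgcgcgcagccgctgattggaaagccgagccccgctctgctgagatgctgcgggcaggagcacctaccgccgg
Psme1, chr14:55578244-55578543, plus strand: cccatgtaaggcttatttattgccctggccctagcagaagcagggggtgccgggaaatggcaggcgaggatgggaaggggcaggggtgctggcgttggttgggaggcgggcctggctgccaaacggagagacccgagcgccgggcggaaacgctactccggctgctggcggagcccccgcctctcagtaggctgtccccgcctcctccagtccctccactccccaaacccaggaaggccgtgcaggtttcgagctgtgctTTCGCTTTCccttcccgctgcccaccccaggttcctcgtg
Psmb5, chr14:54617946-54618245, minus strand: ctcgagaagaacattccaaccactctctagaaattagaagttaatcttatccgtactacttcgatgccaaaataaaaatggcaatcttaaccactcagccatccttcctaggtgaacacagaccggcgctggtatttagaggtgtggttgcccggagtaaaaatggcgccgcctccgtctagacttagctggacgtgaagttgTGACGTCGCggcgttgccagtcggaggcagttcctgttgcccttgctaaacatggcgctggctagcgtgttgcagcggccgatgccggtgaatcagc
Psmb6, chr11:70525107-70525406, plus strand: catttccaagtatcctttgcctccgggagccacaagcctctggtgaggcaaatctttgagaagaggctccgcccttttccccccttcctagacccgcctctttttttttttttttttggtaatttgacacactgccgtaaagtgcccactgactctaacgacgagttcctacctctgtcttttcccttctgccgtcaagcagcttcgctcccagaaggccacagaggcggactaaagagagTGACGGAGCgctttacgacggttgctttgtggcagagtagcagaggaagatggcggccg

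The Psmb8 window held a GAS core 97 to 89 bases before the start, and the Psme1 window an ISRE core 10 to 18 bases past the start base. The Psmb5 window held an ARE core 47 to 39 bases before the start, and the Psmb6 window one 9 to 1 bases before it. None of the 3 motifs was found in the Psmb9 window, nor in those of Psmb10 and Psme2, and no match says only that these letters are not in that window. Of the 48 members, 40 had a promoter entry in RefSeq. An ISRE core was in 7 of the 40, a GAS core in 3 and an ARE core in 6, beside shares of 9.76%, 9.55% and 14.0% of the 27025 genes with an entry, any start of a gene counting. Among the 5 immunoproteasome genes the ISRE core was in 1, the GAS core in 1 and the ARE core in 0, and among the other 35 they were in 6, 2 and 6. The matches were counted without regard to overlap between motifs, and they are descriptions of sequence, not sites of binding.

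Psmb8, the inducible counterpart of Psmb5, lies on chromosome 17 at 34197721-34201454 on the plus strand (GENCODE vM21, GRCm38). Its level was 253, 225, 213 and 225 TPM in the 4 PBS libraries, 641, 655 and 655 in sham sEV, and 349, 310.1 and 312 in SNI sEV. The 3 groups did not overlap, with PBS lowest and sham sEV highest. Against PBS, Psmb8 rose 2.84-fold in sham sEV (log2 fold change 1.51 ± 0.06 SE, limma adjusted p = 2.1e-09) and 1.41-fold in SNI sEV (0.50 ± 0.06, limma adjusted p = 0.00067). It moved from place 7 among the members in PBS to place 1 in sham sEV and place 3 in SNI sEV.

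Psmb9, the inducible counterpart of Psmb6, lies beside it on chromosome 17 at 34181987-34187764, on the minus strand. The stretch from the start of Psmb9 to the end of Psmb8 spans 19468 bases and holds Tap1, a subunit of the peptide transporter, whose exons share 212 bases with those of Psmb9 on the opposite strand. Psmb9 stood at 48.1, 45.1, 44.8 and 44.0 TPM in PBS, at 95.8, 106 and 104 in sham sEV, and at 69.8, 69.2 and 63.5 in SNI sEV. Again the 3 groups were separate. Psmb9 rose 2.21-fold in sham sEV (log2 fold change 1.14 ± 0.06 SE, limma adjusted p = 7.6e-09) and 1.47-fold in SNI sEV (0.56 ± 0.06, limma adjusted p = 0.00014).

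Psmb10, the inducible counterpart of Psmb7, lies away from that cluster on chromosome 8 at 105935735-105938444, minus strand. Its PBS libraries read 127, 101, 101 and 101 TPM, its sham sEV libraries 190.2, 196 and 203, and its SNI sEV libraries 136, 124 and 125. PBS replicate 1 stood above the other 3 and inside the SNI sEV range, whereas the sham sEV libraries were above all others. Psmb10 rose 1.82-fold in sham sEV (log2 fold change 0.87 ± 0.08 SE, limma adjusted p = 2.1e-06). In SNI sEV against PBS it did not pass (0.26 ± 0.08, limma adjusted p = 0.11), but it did with PBS replicate 1 left out (0.34, limma adjusted p = 0.0014).

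Psme1 and Psme2 encode the alternating alpha and beta subunits of the PA28 ring, and sit 5911 bases apart on chromosome 14 (55578123-55581529 on the plus strand and 55587441-55591113 on the minus strand). Psme2 had the largest log2 fold change of the 47 tested members in sham sEV. Its libraries stood at 49.5, 50.8, 42.2 and 41.3 TPM in PBS, 188, 202 and 210.04 in sham sEV, and 72.1, 63.7 and 66.2 in SNI sEV. The 3 groups were separate, and the step from SNI sEV to sham sEV was the wider one. Against PBS, Psme2 rose 4.29-fold in sham sEV (log2 fold change 2.10 ± 0.08 SE, limma adjusted p = 1.1e-09) and 1.46-fold in SNI sEV (0.55 ± 0.08, limma adjusted p = 0.0022).

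Psme1 was at 179, 154, 144 and 153 TPM in PBS, 240.2, 246 and 248 in sham sEV, and 206, 185 and 187 in SNI sEV. The groups did not overlap, although PBS replicate 1 came within a few TPM of the lowest SNI sEV library. Psme1 rose 1.55-fold in sham sEV (log2 fold change 0.64 ± 0.07 SE, limma adjusted p = 7.9e-06) and 1.22-fold in SNI sEV (0.29 ± 0.07, limma adjusted p = 0.035). The call in SNI sEV is a narrow one: it was lost in 13 of 20 alternatives, among them a replicate block, with which the limma adjusted p was 0.061. Leaving out any 1 library other than PBS replicate 1 also lost it, with limma adjusted p from 0.056 to 0.17, while without PBS replicate 1 it was 0.002. The level of Psme1 over that of Psme2 ran from 3.04 to 3.72 in PBS, 2.82 to 2.90 in SNI sEV and 1.18 to 1.28 in sham sEV.

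Psme2 has a near-identical copy in the table, Psme2b, outside the symbol rule. Their transcripts were 99.4% identical over 794 aligned bases, and how reads of such copies were divided is not given in the sources used here. Psme2b stood at 284 ± 29.6 TPM in PBS (SD, n = 4), 1178 ± 30.6 in sham sEV (n = 3) and 388 ± 17.5 in SNI sEV (n = 3), so it held most of the summed level. Psme2 was between 13.4% and 15.0% of that sum in every library. The sum itself was 329.9 ± 34.2, 1378 ± 41.9 and 455 ± 21.7 TPM in the 3 groups, in the same order as Psme2 alone. Over Psme1, this sum ran from 1.94 to 2.25 in PBS, 2.33 to 2.41 in SNI sEV and 5.55 to 5.71 in sham sEV, so whether the levels of the PA28 pair came closer or moved apart in sham sEV turns on whether the copy is counted. The level of Psme2 as printed is therefore uncertain.

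**Figure D2:**
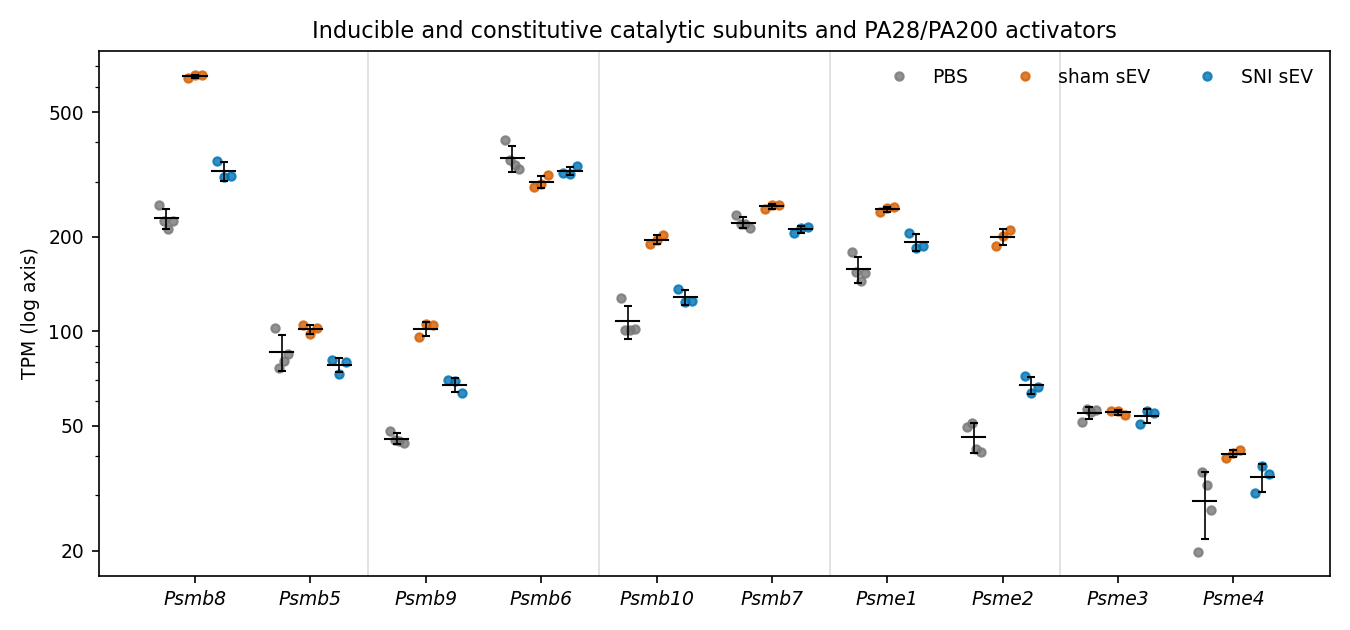
TPM on a log axis of the inducible catalytic subunits beside their constitutive counterparts (Psmb8 and Psmb5, Psmb9 and Psmb6, Psmb10 and Psmb7), the PA28 pair and the activators Psme3 and Psme4; each point is 1 library, and bars are the mean and SD of 4 PBS, 3 sham sEV and 3 SNI sEV libraries. Psmb8, Psmb9 and Psme2 form 3 separate groups, lowest in PBS and highest in sham sEV, whereas Psme3 overlaps in all groups.

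The constitutive catalytic subunits had smaller log2 fold changes than their inducible counterparts in both vesicle groups. Psmb5, which carries the chymotrypsin-like site, was at 86.0 ± 11.6 TPM in PBS, 102 ± 3.34 in sham sEV and 78.0 ± 4.03 in SNI sEV (SD, n = 4, 3 and 3). It rose 1.19-fold in sham sEV (log2 fold change 0.25, limma adjusted p = 0.025), although PBS replicate 1, at 103 TPM, lay inside the sham sEV range. Psmb7, which carries the trypsin-like site, went from 222 ± 8.95 TPM in PBS to 250.3 ± 4.77 in sham sEV (0.18, limma adjusted p = 0.0044). Psmb6, which carries the caspase-like site, fell from 356 ± 35.0 TPM in PBS to 299 ± 13.7 in sham sEV (-0.24, limma adjusted p = 0.0086), yet its log2 fold change was 0.0399 under median-of-ratios scaling. None of the 3 was called in SNI sEV against PBS, where their log2 fold changes lay between -0.13 and -0.07.

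Set against each other within a library, the inducible subunits took a larger part of the catalytic transcripts in both vesicle groups. Psmb8, Psmb9 and Psmb10 made up 36.5 ± 0.489% of the summed TPM of the 6 catalytic genes in PBS (SD, n = 4), 59.3 ± 0.379% in sham sEV (n = 3) and 45.8 ± 1.83% in SNI sEV (n = 3). The libraries ran from 36.0 to 37.2%, from 58.9 to 59.7% and from 44.2 to 47.8%, without overlap. The summed TPM of the inducible genes was 382 ± 31.6, 948 ± 18.3 and 519.5 ± 31.0 in the 3 groups, and that of the constitutive genes 664 ± 54.0, 651 ± 16.9 and 614 ± 14.8.

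**Figure D3:**
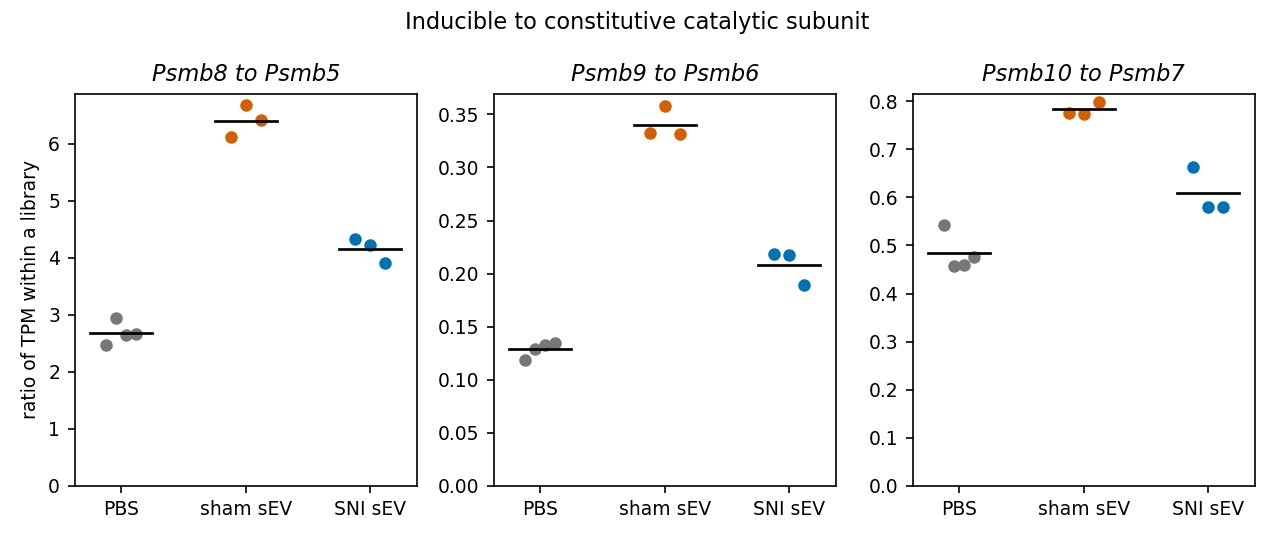
Ratio of TPM of each inducible catalytic subunit to its constitutive counterpart within each library (points; bars mark the group means of 4 PBS, 3 sham sEV and 3 SNI sEV libraries). In all 3 pairs the groups are separate, with PBS lowest and sham sEV highest.

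The ratio of Psmb8 to Psmb5 was 2.68 ± 0.196 in PBS, 6.40 ± 0.274 in sham sEV and 4.15 ± 0.216 in SNI sEV. For Psmb9 to Psmb6 it was 0.128 ± 0.00716, 0.340 ± 0.0150 and 0.208 ± 0.0169, so Psmb6 transcripts stayed the more abundant of that pair in every library. Psmb10 to Psmb7 gave 0.484 ± 0.0402, 0.783 ± 0.0139 and 0.608 ± 0.0481, and the highest PBS ratio (0.544) was below the lowest SNI sEV ratio (0.580). A ratio within a library does not depend on a scaling factor per library, and it shows unequal change, not which of its genes changed. These ratios are given as descriptions, without a test.

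The alpha ring, which gates the core, was higher in sham sEV across its general members. All 7 alpha genes other than Psma8 were called higher, where 16.5% of all tested genes were, with a median log2 fold change of 0.34. None of the 8 was called in SNI sEV against PBS, where 5.34% of all tested genes were. None had an unadjusted limma p under 0.05 there. Psma8, the testis form that can replace Psma7, was low at 2.65 ± 0.508 TPM in PBS (SD, n = 4) and was called in no comparison. Psma6 stood out of this ring. Its level was 212, 248, 224 and 169.6 TPM in PBS, 549.7, 571 and 589 in sham sEV, and 239, 240.2 and 219.9 in SNI sEV. SNI sEV libraries lay within the PBS range, and the sham sEV libraries far above both. Psma6 rose 2.69-fold in sham sEV (log2 fold change 1.43 ± 0.10 SE, limma adjusted p = 2.1e-07) and had 0.14 ± 0.10 in SNI sEV (limma adjusted p = 0.52).

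Psma7 and Psma5 followed in the alpha ring. Psma7 went from 160.7 ± 7.65 TPM in PBS to 240.4 ± 14.5 in sham sEV (log2 fold change 0.58, limma adjusted p = 2.3e-06). Psma5 went from 47.7 ± 3.11 to 70.9 ± 2.90 TPM (0.56, limma adjusted p = 4.7e-06). The value of Psma5 is uncertain, since the table also lists its copy Psma5-ps at 77.7 ± 4.17 TPM in PBS and 118 ± 2.96 in sham sEV. Psma1, Psma2, Psma3 and Psma4 were called higher with log2 fold changes between 0.26 and 0.34, and Psma3 lost its call in some alternatives. Of the noncatalytic beta subunits, Psmb2 (0.18) and Psmb3 (0.27) were called higher in sham sEV, while Psmb1 (-0.07) and Psmb4 (0.04) were not called.

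In the 19S particle, 5 of the 6 ATPases, which unfold substrates and open the gate, were higher in sham sEV. Of all tested genes, 16.5% were called higher and 52.5% lower in sham sEV against PBS. Psmc6 had the largest change of these, from 87.0 ± 9.93 TPM in PBS to 128 ± 6.63 in sham sEV (log2 fold change 0.56, limma adjusted p = 6.9e-05). Psmc5 went from 198 ± 10.8 to 279.9 ± 2.39 TPM (0.50, limma adjusted p = 2.6e-06). Psmc1 (0.36), Psmc2 (0.38) and Psmc4 (0.14) were also called higher, and Psmc3 (-0.03) was not. Among the 11 non-ATPase subunits the picture was mixed, with 4 called higher, 1 lower and 6 not called. Those called higher were Psmd14, the deubiquitinase of the lid (0.39), its partner Psmd7 (0.36), Psmd11 (0.29) and the ubiquitin receptor Psmd4 (0.20). Psmd1 and Psmd2, the large scaffold subunits of the base, had 0.13 and 0.0028 and were not called, as were Psmd3, Psmd6, Psmd12 and Psmd13.

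Psmd8, a lid subunit, was the member with the highest level in PBS and the one that fell the most in sham sEV. It read 483, 457, 464 and 434 TPM in PBS, 249, 266 and 268 in sham sEV, and 387, 411 and 426 in SNI sEV. All 3 groups were apart, with sham sEV lowest and SNI sEV between. Psmd8 fell by 0.81 on the log2 scale in sham sEV (SE 0.05, limma adjusted p = 8e-08), from place 1 to place 8 among the members. In SNI sEV against PBS its log2 fold change was -0.17 ± 0.05 SE (limma adjusted p = 0.094), which does not pass although the libraries do not overlap; 6 of the 47 members did not overlap in this comparison, where 17.3% of all tested genes did not.

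Of the chaperones that assemble the 19S base, 3 are members by the symbol rule, and they went different ways. Psmd10, also known as gankyrin, was at 43.9, 41.0, 41.6 and 40.5 TPM in PBS, 94.9, 98.9 and 98.6 in sham sEV, and 42.0, 39.9 and 38.5 in SNI sEV. The sham sEV libraries were all above the others, and PBS and SNI sEV overlapped. Psmd10 rose 2.30-fold in sham sEV (log2 fold change 1.20 ± 0.05 SE, limma adjusted p = 1.8e-09) and had -0.06 ± 0.05 in SNI sEV (limma adjusted p = 0.60). Psmd9 was lower in sham sEV, at 16.5 ± 0.563 TPM against 25.2 ± 2.01 in PBS (log2 fold change -0.58, limma adjusted p = 1.1e-05). Psmd5 was slightly higher (0.17, limma adjusted p = 0.031), a call that was lost in some alternatives.

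The chaperones of the 20S core did not share a direction either. Psmg2, the partner of Psmg1 in building the alpha ring, fell from 34.4 ± 1.43 TPM in PBS to 24.2 ± 1.48 in sham sEV (log2 fold change -0.49, limma adjusted p = 5.2e-05). Psmg1 had -0.14 (limma adjusted p = 0.067) and Psmg3 -0.14 (limma adjusted p = 0.12), neither of them called. Psmg4 had 0.16 (limma adjusted p = 0.034), with libraries that overlap those of PBS. Psmf1, which encodes the regulator PI31, was 20.1 ± 1.59 TPM in PBS and 17.1 ± 0.906 in sham sEV (-0.22, limma adjusted p = 0.015), but its log2 fold change was 0.0469 with median-of-ratios scaling and 0.0069 after quantile normalization. Of the activators other than PA28, Psme4 (PA200) was higher in sham sEV, at 40.8 ± 1.11 TPM against 28.7 ± 6.88 (0.52, limma adjusted p = 0.011), and Psme3 (PA28 gamma, a nuclear activator) was not called (0.0091, limma adjusted p = 0.89).

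**Figure D4:**
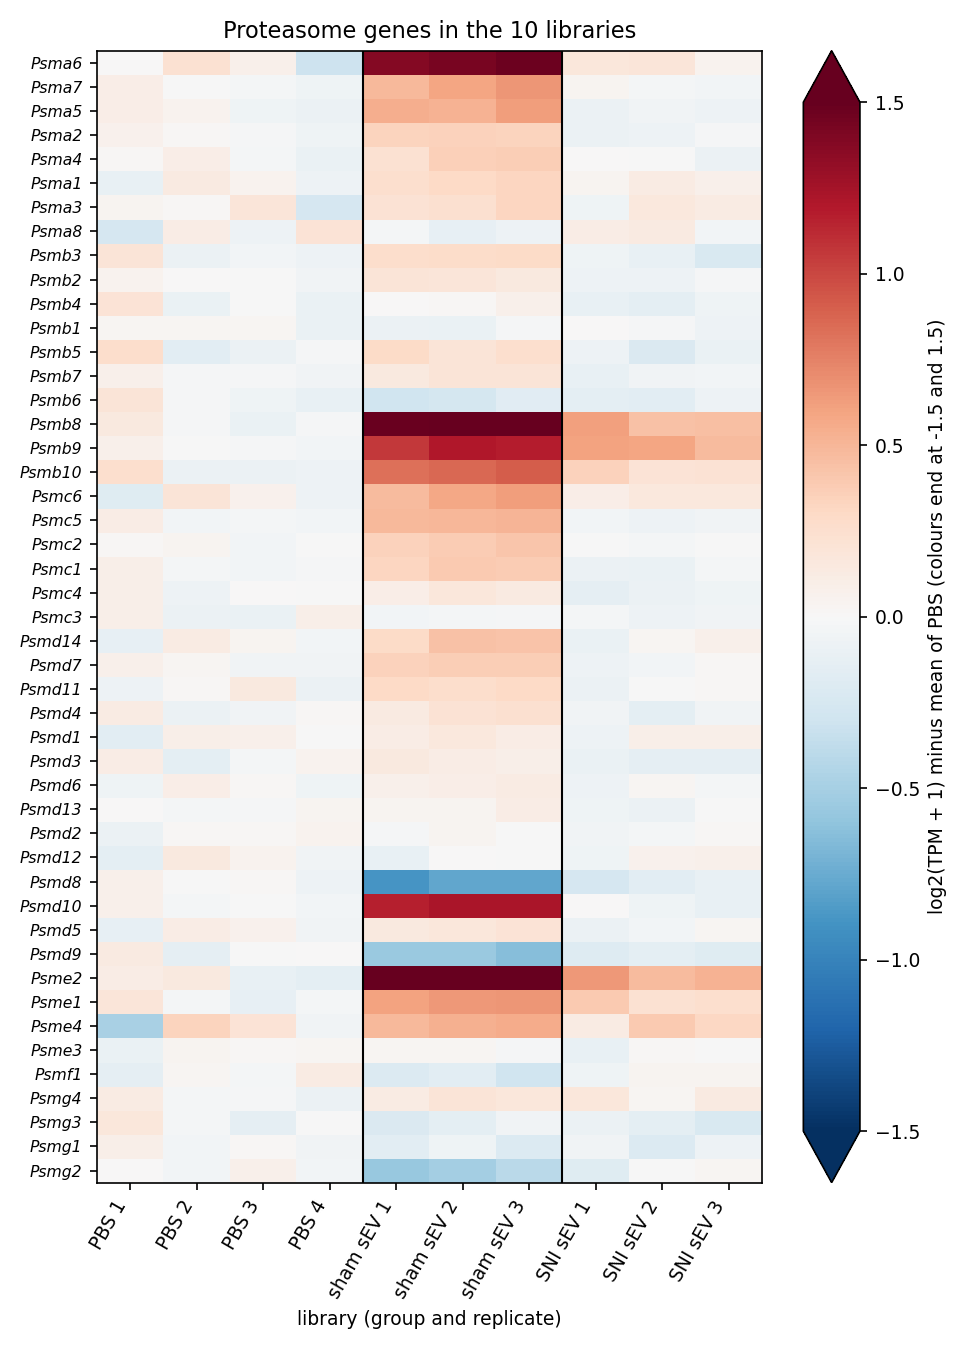
Difference of log2(TPM + 1) from the mean of the 4 PBS libraries for the 47 tested members (rows, ordered by role) in each of the 10 libraries (columns, labelled by group and replicate); red is higher and blue lower, and colours end at -1.5 and 1.5. The 3 sham sEV columns are alike and carry the strong colours, and in each SNI sEV column the highest rows are Psmb8, Psmb9 and Psme2.

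Over all members, summed TPM was 6311 ± 208 in PBS (SD, n = 4), 7960.4 ± 175 in sham sEV (n = 3) and 6311 ± 39.3 in SNI sEV (n = 3). These sums were 0.631%, 0.796% and 0.631% of all TPM. The typical member was abundant: the median level in PBS was 128 TPM over the tested members and 15.3 TPM over all tested genes, and 25 members lay between 100 and 300 TPM. With the whole table at a median of -0.25 in sham sEV, 44 of the 47 members had a log2 fold change above that median, and their own median was 0.20. The split of calls moved with the scaling. In sham sEV against PBS, median-of-ratios scaling gave 39 members higher and 3 lower, with 31.9% of all tested genes higher and 30.9% lower, and quantile normalization 34 and 4, with 29.1% and 33.0% of all.

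SNI sEV and sham sEV were also compared directly. Against sham sEV, 28 of the 47 members were lower and 4 higher in SNI sEV, where 15.7% of all tested genes were lower and 49.9% higher. The groups did not overlap for 38 members, and for 78.1% of all tested genes. Here too the split moved with scaling: median-of-ratios scaling gave 41 lower and 1 higher, with 30.2% of all tested genes lower and 28.7% higher, and quantile normalization 32 and 2, with 27.9% and 29.5% of all. The median log2 fold change was -0.24 over the members and 0.24 over all tested genes.

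All 5 immunoproteasome genes were lower in SNI sEV than in sham sEV. Psme2 differed by -1.56 ± 0.09 SE on the log2 scale (limma adjusted p = 3.4e-08), Psmb8 by -1.01 ± 0.07 (limma adjusted p = 1.7e-07), Psmb10 by -0.61 ± 0.09 (limma adjusted p = 8.7e-05), Psmb9 by -0.59 ± 0.06 (limma adjusted p = 6.2e-06) and Psme1 by -0.35 ± 0.07 (limma adjusted p = 0.0016). Outside the immunoproteasome the widest differences were those of Psma6 (-1.29, limma adjusted p = 1.3e-06) and Psmd10 (-1.26, limma adjusted p = 3.3e-09). By role, 6 of the 8 alpha genes, 5 of the 6 ATPases and 6 of the 11 non-ATPase subunits were lower, beside 15.7% of all tested genes. The higher ones in SNI sEV were Psmd8 (0.64, limma adjusted p = 1.6e-06), Psmg2 (0.44, limma adjusted p = 0.00026), Psmd9 (0.41, limma adjusted p = 0.00039) and Psmf1 (0.23, limma adjusted p = 0.020). For Psmf1 the direction reversed under both other scalings, as in sham sEV against PBS.

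The authors' deposited table of 2375 genes holds 5 members, Psma6, Psmb8, Psmb9, Psmd10 and Psme2, each of its genes reaching at least 2.00-fold in one of its comparisons. For sham sEV against PBS it gives Psmb8 a fold of 2.84 at a false discovery rate (FDR, the authors' adjusted p-value) of 5.4e-05 and Psme2 a fold of 4.29 at 7.2e-05. For SNI sEV against PBS the authors' deposited table gives Psmb9 a fold of 1.47 at an FDR of 0.026. The authors' folds equal those computed here on the TPM + 1 scale, so they are not a second estimate, and only the FDR differs. In SNI sEV against PBS the authors' table gives Psmb8 1.41 at an FDR of 0.064 and Psme2 1.46 at 0.087, both above 0.05, whereas limma called both. The call of these 2 genes in SNI sEV thus depends on the test, which the sources used here do not give for the authors' table.

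The genes that surround the proteasome were taken from 4 lists, and their counts are read beside the shares of all tested genes. Those were 16.5% higher and 52.5% lower in sham sEV against PBS, and 2.97% and 2.36% in SNI sEV against PBS. Of 14 measured partners outside the symbol rule, 5 rose and 5 fell in sham sEV against PBS, with a median log2 fold change of 0.08. Nfe2l1, the transcription factor that raises proteasome genes when proteasome activity is short, went from 101 ± 7.93 TPM in PBS to 208 ± 8.67 in sham sEV (1.04, limma adjusted p = 4.2e-08) and stood at 104 ± 2.13 in SNI sEV (0.05, limma adjusted p = 0.72). Nfe2l2, its relative in the oxidative stress response, fell to 106 ± 2.06 TPM in sham sEV and to 168 ± 2.65 in SNI sEV from 200.1 ± 12.7 in PBS (-0.91, limma adjusted p = 3e-08, and -0.25, limma adjusted p = 0.018). In SNI sEV this was the only called member of the list, and the call was lost in some alternatives. The zinc-finger proteins that bind the proteasome moved apart in sham sEV: Zfand5 had a log2 fold change of 0.82 (limma adjusted p = 6.1e-05) and Zfand2a, known from heat and arsenite stress, -1.29 (limma adjusted p = 4.3e-08).

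Of 16 genes of ubiquitin supply and shuttling, 6 were higher and 4 lower in sham sEV, beside 16.5% and 52.5% of all tested genes. None was called in SNI sEV against PBS, where 2 were lower at an unadjusted limma p under 0.05. The share of all tested genes at that threshold is not given here, so the 2 are not read as a result. The median log2 fold change of the list was 0.10 in sham sEV. The polyubiquitin gene Ubb went from 711 ± 32.1 TPM in PBS to 921 ± 23.4 in sham sEV (log2 fold change 0.37, limma adjusted p = 3e-05). Rps27a, which encodes ubiquitin fused to a ribosomal protein, went the other way (-0.37, limma adjusted p = 2.6e-05), although its call was lost under median-of-ratios scaling. Ubqln2, a shuttle that carries ubiquitinated proteins to the proteasome, fell from 30.2 ± 2.71 to 15.3 ± 0.514 TPM (-0.94, limma adjusted p = 2.8e-07).

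Of 12 genes of MHC class I peptide supply, 11 were higher in sham sEV and 6 in SNI sEV than in PBS, and none was lower. Among all tested genes, 16.5% were higher in sham sEV and 2.97% in SNI sEV. The median log2 fold change of the 12 was 0.66 in sham sEV and 0.49 in SNI sEV. Tapbp, which holds class I molecules at the peptide transporter, was at 207 ± 10.1 TPM in PBS, 439.7 ± 3.32 in sham sEV and 320.3 ± 16.4 in SNI sEV, with log2 fold changes of 1.08 (limma adjusted p = 5.5e-09) and 0.63 (limma adjusted p = 4.3e-05). Calr, a chaperone of class I folding, was higher in sham sEV (0.49, limma adjusted p = 3.9e-06) and not called in SNI sEV (-0.0082, limma adjusted p = 0.95).

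Of 14 genes on the way from interferon to the immunoproteasome, 12 were tested. In sham sEV 8 were higher and 4 lower, beside 16.5% and 52.5% of all tested genes. In SNI sEV 4 were higher, beside 2.97% of all tested genes. The median log2 fold change of the 12 was 0.42 in sham sEV and 0.10 in SNI sEV. Jak2, a kinase of the interferon gamma receptor, stood at 9.10 ± 0.932 TPM in PBS, 52.3 ± 3.14 in sham sEV and 11.7 ± 0.0380 in SNI sEV (log2 fold changes 2.40, limma adjusted p = 2.4e-10, and 0.33, limma adjusted p = 0.032); the call in SNI sEV was lost in 10 of 20 alternatives. Irf9, part of the complex that binds ISREs, had 0.84 in sham sEV (limma adjusted p = 2.2e-07) and 0.52 in SNI sEV (limma adjusted p = 0.00036). Irf8, a microglial factor, was lower in sham sEV, at 86.4 ± 3.06 TPM against 162 ± 7.19 in PBS (-0.90, limma adjusted p = 2.2e-08). The receptor subunit gene Ifngr1 was higher in SNI sEV than in sham sEV, at 155 ± 8.31 TPM against 84.4 ± 3.92 (0.87, limma adjusted p = 3.1e-07). In PBS it stood at 152 ± 8.48 TPM. Against PBS its log2 fold change was -0.84 in sham sEV (limma adjusted p = 1.7e-07). In SNI sEV it was 0.03 (limma adjusted p = 0.84). Between SNI sEV and sham sEV, 9 of the 12 class I supply genes were lower in SNI sEV and 0 higher. The lower and higher counts were 6 and 4 among the 12 tested interferon genes, 4 and 4 among the 16 ubiquitin genes, and 5 and 4 among the 14 partners. Among all tested genes, 15.7% were lower and 49.9% higher in SNI sEV.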

How the data were processed

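Messenger RNA was measured in 10 libraries of primary cortical microglia (4 PBS, 3 sham sEV, 3 SNI sEV), prepared with a stranded kit per the labels' protocols. Per the submitters' processing notes, the tools were bcl2fastq, BWA, Subread and featureCounts 2.0.2 with the mm10 build. The strand setting, the annotation and the treatment of reads from near-identical copies are not given in the sources used here.

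The values are TPM, made and deposited by the authors, with a total of 1000000 per library; TPM keeps no depth, so no counting interval was computed. A second table deposited by the authors gives a signed fold change (a score with no values between -1 and 1) and an FDR, an adjusted p-value, per the file headers; its test is not stated there.

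limma 3.58.1 (R 4.3.3) was fitted to log2(TPM + 1) of the 14806 genes that averaged 1 TPM or more over the 10 libraries, with 1 mean per group, a spread shared by the 3 groups and a mean-variance trend; tests were two-sided with Benjamini-Hochberg adjustment over all tested genes called at 0.05. The TPM + 1 scale of the fold changes understates low genes. The script was tested on simulated data. Alternatives were other pseudocounts, filters, scalings and spread estimates, a replicate block, and leaving out each library; 1 more, without Psme2 and Psma5, was chosen after seeing the data.

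Deviations from group means correlated at 0.154 to 0.363 in the 3 same-numbered pairs of SNI sEV and PBS libraries. In the 9 pairs with different numbers they ran from -0.351 to 0.220, so the ranges overlap. Same-numbered pairs of sham sEV and PBS gave -0.0176 to 0.0512, beside -0.270 to 0.161 in the others. Those of SNI sEV and sham sEV gave 0.0172 to 0.0772, beside -0.0833 to 0.0177. These values do not settle whether a number marks a pair. The labels do not say what a number shares.

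The members and lists were chosen with earlier results of these data known. From each of the 4 lists outside the rule, the tested genes named were among up to 4 with the smallest limma p of those called in a comparison. All members are accounted for. The values of 1 gene of the ubiquitin list are not reported here. Gene positions are from GENCODE vM21 and promoter windows from RefSeq, both on GRCm38.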

Additional observations from a re-analysis of the deposited data

Results flagged for a closer look

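In the PBS group of 4 libraries, 4 of 47 tested members had 1 library far from the other 3, relative to the whole range of the group; chance alone gives about 1 in 20. PBS replicate 1 was high for Psmb10 (127 TPM, with 101 in the next library), for Psmb3 (112 TPM, next 94.6) and for Psmc5 (215 TPM, next 194). PBS replicate 4 was low for Psmb1 (245 TPM, next 267). PBS replicate 1 was the highest of the PBS libraries for 27 of 47 members, and for 19.5% of all tested genes. PBS replicate 4 was the lowest for 21 of 47, and for 11.1% of all tested genes.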

How the results depend on the processing

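Each called member was followed through 20 alternatives. In sham sEV against PBS, 24 of 29 higher and 3 of 5 lower calls passed in all of them; the calls lost in some were Psma3, Psmb5, Psmc4, Psmd5 and Psmg4, and Psmb6 and Psmf1. In SNI sEV against PBS, 3 of 4 did, Psme1 being the exception, and in SNI sEV against sham sEV 1 of 4 higher calls (Psmd9, Psmf1 and Psmg2 were lost in some) and 26 of 28 lower calls (Psmd13 and Psmd5 were lost in some).

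Counts of calls moved with the scaling in both comparisons that involve sham sEV, and with sample weights in SNI sEV against PBS. Members lower in sham sEV than in PBS came to 3 under median-of-ratios scaling, against 5. Members higher in SNI sEV than in sham sEV came to 1 and 2 under median-of-ratios scaling and quantile normalization, against 4. Sample weights gave 6 members higher (Psmb10 and Psmg4 besides the 4) and 4 lower in SNI sEV than in PBS (Psmb3, Psmd3, Psmd8 and Psmd9), against 4 and 0; with these weights 8.60% of all tested genes were higher and 18.4% lower there. The cause was not tested. Leaving out 1 library at a time gave 24 to 31 higher and 4 to 6 lower in sham sEV against PBS, 3 to 5 higher and 0 lower in SNI sEV against PBS, and 3 to 5 higher and 26 to 31 lower in SNI sEV against sham sEV. The calls that leaving out 1 library ended in sham sEV against PBS had limma adjusted p of 0.057 to 0.11 for Psma3 (without PBS replicate 4 or any sham sEV library), 0.052 to 0.082 for Psmb5 (PBS replicates 2, 3 and 4, sham sEV 1 and 3), 0.058 to 0.1 for Psmc4 (PBS replicate 2, sham sEV 2 and 3), 0.057 to 0.097 for Psmd5 (PBS replicate 4 or any sham sEV library), 0.054 to 0.11 for Psmg4 (PBS replicates 2, 3 and 4 or any sham sEV library) and 0.072 for Psmf1 (sham sEV 3). In SNI sEV against sham sEV they were 0.058 to 0.15 for Psmd13 (PBS replicate 3, any sham sEV library, SNI sEV 1 and 2), 0.051 to 0.066 for Psmd5 (sham sEV 3, SNI sEV 1 and 2) and 0.065 to 0.081 for Psmf1 (sham sEV 3, SNI sEV 2 and 3). With the replicate block, the pairs of calls higher and lower were 27 and 5, 3 and 0, and 4 and 30 in these comparisons, and Psme1 in SNI sEV against PBS had a log2 fold change of 0.28. Without Psme2 and Psma5 they were 27 and 5, 3 and 0, and 4 and 26.

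Log2 fold changes that were called under at least 1 of the settings compared reversed in sham sEV against PBS as follows: under median-of-ratios scaling Psmb1 0.21, Psmb6 0.0399, Psmc3 0.25, Psmd12 0.25 and Psmf1 0.0469, and after quantile normalization Psma8 0.26 and Psmf1 0.0069. In SNI sEV against sham sEV such values reversed under median-of-ratios scaling for Psmb1 (-0.23), Psmd12 (-0.21), Psmf1 (-0.0328) and Psmg1 (-0.24), and under quantile normalization for Psmf1 (-0.0084). Signs also changed where neither value was called, mostly of small changes; under median-of-ratios scaling these included Psmg1 (0.13), Psmg3 (0.14) and Psma8 (0.13) in sham sEV against PBS, and Psmb6 (-0.16) and Psma8 (-0.06) in SNI sEV against sham sEV, and Psma8 was at -0.23 there after quantile normalization. The ratios and shares of catalytic subunits stayed within the spread of replicates in all 58 recomputed values. A scaling factor per library cannot move a ratio within a library, so median-of-ratios scaling is no check on them. When a library is left out, the mean of the rest stays within the range of the replicates by construction. Leaving out a library is therefore no check on them either. TPM keeps no depth, so the precision of low genes such as Psma8 is unknown.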

Other observations

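The interferon genes Ifnb1 and Ifng were too low to be tested, and these 2 were chosen after their values were seen. Other interferon genes are not described here. Ifnb1 was at 0.0166 ± 0.0333 TPM in PBS (SD, n = 4), 0.378 ± 0.0824 in sham sEV (n = 3) and 0.0770 ± 0.0667 in SNI sEV (n = 3). Ifng was listed at 0 in PBS and SNI sEV and at a mean of 0.0348 TPM in sham sEV. Some genes share exon bases with a member on the opposite strand. Tap1 (212 bases with Psmb9) went from a mean of 31.8 TPM in PBS to 120 in sham sEV and 53.9 in SNI sEV. Slc39a13 (215 bases with Psmc3) went from a mean of 19.8 TPM in PBS to 58.0 in sham sEV, and Nek6 (405 bases with Psmb7) from 60.9 to 24.5. Whether reads of these genes entered the values of the members was not tested.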
